A study of Mus musculus with 20 samples.

Results

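Flrt3, Msn, Gprasp2, Rtkn2, Nkiras1, Ctdsp1, Ro60, Fyco1 and Pced1b are 9 of the 55421 genes counted in mouse aorta, and they were chosen by their own counts, for a shift between the genotypes at 28 months or for a shift that differed between the ages. After adjustment over all genes edgeR called none of those shifts. The genotype values below are the ones the genes were selected on, so they are given as a description without a test. Each of the 9 passed the filter on low counts.

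The libraries came from the RNA of 20 whole aortas, 1 from each C57BL/6 mouse. The 4 groups of 5 were Pparafl/fl mice at 2 months, smooth muscle knockouts (Ppara△SMC) at 2 months, Pparafl/fl mice at 28 months and smooth muscle knockouts at 28 months. Pparafl/fl animals carry Ppara alleles flanked by recombination sites, and in the knockout the gene is removed in smooth muscle cells. The Cre driver, the exon removed and the sex of the animals are not given in the sources used here, and the extraction notes name islets once although every sample is labelled aorta. Replicates are separate animals, numbered in accession order, so the numbers pair nothing. Levels are counts per 1e6 counts (CPM) on 1 scale for all 20 libraries.

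PPARα, the product of Ppara, is a nuclear receptor that binds fatty acids and turns on genes of lipid uptake and oxidation. Smooth muscle cells form the contractile middle layer of the aorta, which stiffens with age. The 9 genes do not form a pathway: FLRT3 and moesin act at the cell membrane, GPRASP2, rhotekin 2, κB-Ras1 and CTDSP1 act in signalling and transcription, Ro60 binds RNA, FYCO1 moves autophagosomes, and the function of PCED1B is little known.

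Ppara itself did not separate the genotypes. It ranged from 89.0 to 196 CPM in Pparafl/fl and from 69.5 to 138 CPM in the knockouts at 2 months, and from 26.2 to 90.1 CPM and from 47.7 to 91.9 CPM at 28 months. Whole-gene counts outside a deleted exon, or from other cell types, do not check the deletion. Library totals lay between 50046288 and 79385413 counts. The 10 smooth muscle markers summed to between 3465 and 8220 CPM in Pparafl/fl and between 1094 and 9983 CPM in the knockouts at 2 months, and to between 575.2 and 1197 CPM and between 392.3 and 1236 CPM at 28 months, with no marker at 0 throughout. Adipocyte markers summed higher than smooth muscle markers in every library, from 4862 to 63250 CPM. Airway epithelium markers reached 179.7 CPM at most at 2 months. At 28 months they varied widely, from 77.13 to 4840 CPM in Pparafl/fl and from 20.51 to 6314 CPM in the knockouts. Skeletal muscle markers summed to between 13.7 and 3402 CPM in Pparafl/fl and between 10.43 and 5364 CPM in the knockouts at 2 months. At 28 months they were mostly higher in Pparafl/fl, at 3010 to 22290 CPM against 451.6 to 4919 CPM in the knockouts. Their part in the genotype differences below was not tested. In such bulk tissue, fewer cells of a type and less RNA per cell cannot be told apart.

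Flrt3 encodes a leucine-rich repeat membrane protein that binds latrophilins and UNC5 receptors between cells and FGF receptors within a cell. It lies on chromosome 2 (140650914 to 140671469, minus strand, GRCm38, GENCODE M21; ENSMUSG00000051379). At 28 months it stood at 17.0, 12.4, 11.5, 16.5 and 16.0 CPM in the 5 knockouts and at 6.65, 5.24, 4.42, 5.56 and 6.14 CPM in the 5 Pparafl/fl mice. Each knockout lay above each Pparafl/fl mouse, with means of 14.7 ± 2.52 CPM (SD, n = 5) and 5.60 ± 0.855 CPM (SD, n = 5). The order of the means was the other way round at 2 months, at 3.11, 2.69, 2.83, 1.10 and 2.26 CPM in the knockouts and 5.23, 1.06, 12.9, 9.25 and 7.65 CPM in Pparafl/fl. The groups overlapped there through Pparafl/fl replicate 2, which held the lowest value of all 20 libraries. The genotype difference in log2 fold change was -1.56 ± 0.547 (SE) at 2 months and 1.39 ± 0.216 (SE) at 28 months.

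Pced1b, of the PC-esterase family, followed a similar order over the groups at a similar level. The gene is on chromosome 15 (97247107 to 97385680, plus strand, GRCm38; ENSMUSG00000044250). Its level at 28 months was 15.3, 6.54, 8.08, 9.35 and 11.2 CPM in the knockouts and 5.29, 4.47, 6.31, 4.78 and 7.69 CPM in Pparafl/fl. The highest Pparafl/fl value lay above the lowest knockout value, so these groups overlapped. At 2 months the knockouts, at 4.95, 6.48, 6.65, 2.34 and 4.03 CPM, all lay below Pparafl/fl, at 9.81, 11.7, 8.64, 14.9 and 7.35 CPM. The log2 fold change between the genotypes was -1.07 ± 0.307 (SE) at 2 months and 0.82 ± 0.288 (SE) at 28 months. Without knockout replicate 1, the highest of its group, the value at 28 months was 0.63.

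Msn encodes moesin, an ERM protein that ties cortical actin to membrane proteins such as CD44, and it was the most abundant of the 9 genes per length of exon, at a mean of 48.2 CPM per kb over 20 libraries. It lies on the X chromosome (96096042 to 96168552, plus strand, GRCm38; ENSMUSG00000031207). At 28 months its level was 269, 424, 416, 352 and 491 CPM in the knockouts and 217, 234, 134, 267 and 219 CPM in Pparafl/fl. Every knockout lay above every Pparafl/fl mouse, although the lowest knockout exceeded the highest Pparafl/fl value by little. The ranges overlapped widely at 2 months, from 258 to 327 CPM in the knockouts and from 274 to 364 CPM in Pparafl/fl. The genotype log2 fold change was -0.13 ± 0.0991 (SE) at 2 months and 0.87 ± 0.219 (SE) at 28 months. Summed macrophage markers, which belong to cells rich in moesin, ranged from 1355 to 3751 CPM in the knockouts and from 1039 to 1843 CPM in Pparafl/fl at 28 months, with none of the 10 markers at 0 throughout. With the macrophage marker mean as a covariate the 28-month log2 fold change of Msn was 0.89, and its cause was not tested.

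Gprasp2 encodes a protein that binds G protein-coupled receptors and takes part in their sorting to lysosomes. It lies on the X chromosome (135839034 to 135844730, plus strand, GRCm38; ENSMUSG00000072966). Its level at 28 months was 12.3, 4.79, 14.8, 8.71 and 4.20 CPM in the knockouts and 1.68, 2.42, 0.803, 2.14 and 2.27 CPM in Pparafl/fl. The knockouts lay above all Pparafl/fl mice but differed among themselves by more than the Pparafl/fl mice did. At 2 months the values were 3.92, 14.3, 4.09, 5.15 and 4.06 CPM in the knockouts and 4.20, 7.71, 3.27, 6.30 and 5.59 CPM in Pparafl/fl. Apart from replicate 2, the young knockouts lay within the range of young Pparafl/fl, and the log2 fold change was 0.25 ± 0.416 (SE), against 2.27 ± 0.457 (SE) at 28 months. Gprasp2 shares 376 exonic bases with Bhlhb9 on the same strand, and reads there cannot be assigned to either gene alone. Bhlhb9 averaged 31.0 ± 16.3 CPM (SD, n = 5) in the 28-month knockouts and 25.2 ± 12.6 CPM (SD, n = 5) in 28-month Pparafl/fl, with overlapping ranges.

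**Figure D1:**
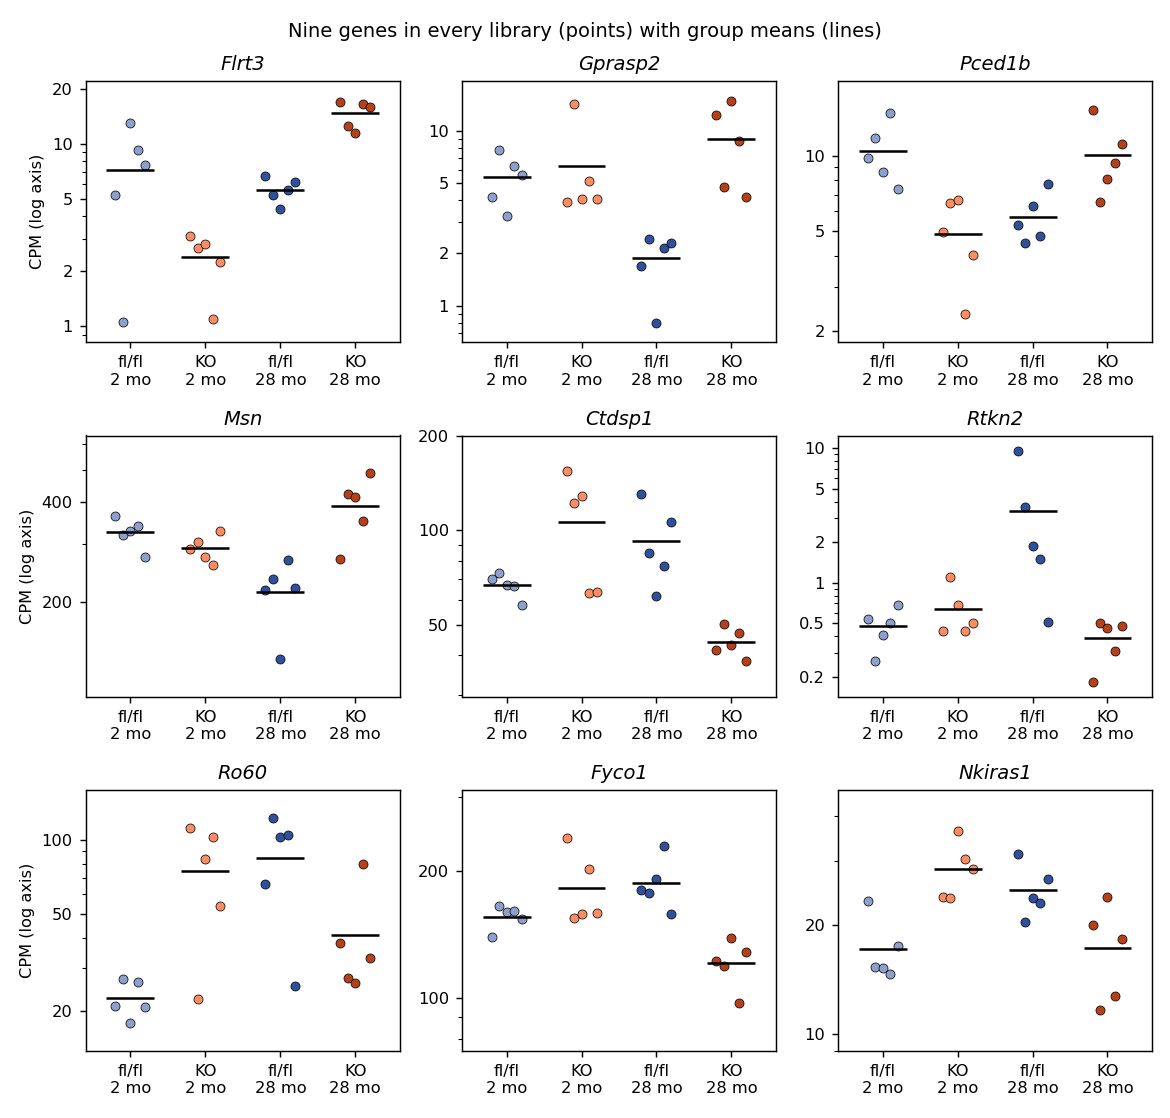
Level of the 9 genes in each of the 20 libraries in CPM on a log axis, with 1 panel per gene, points for mice and lines for group means of 5 (fl/fl, Pparafl/fl; KO, smooth muscle knockout; mo, months). Flrt3, Gprasp2 and Msn were higher in every 28-month knockout than in any 28-month Pparafl/fl mouse, and Ctdsp1, Rtkn2 and Fyco1 were lower.

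Ctdsp1 encodes a small phosphatase that removes phosphate from the tail of RNA polymerase II and acts with the REST repressor at neuronal genes. It lies on chromosome 1 (74391509 to 74397285, plus strand, GRCm38; ENSMUSG00000026176). At 28 months it stood at 41.7, 50.2, 43.2, 47.3 and 38.4 CPM in the knockouts and at 131, 84.9, 61.8, 76.8 and 106 CPM in Pparafl/fl. Every knockout was below every Pparafl/fl mouse, and the knockouts lay close together. In young mice the levels were 154, 122, 129, 63.0 and 63.5 CPM in the knockouts and 69.8, 72.9, 66.7, 66.6 and 57.7 CPM in Pparafl/fl. The young knockouts fell into 3 high and 2 low libraries, the low ones within the range of Pparafl/fl. The log2 fold change between the genotypes was 0.70 ± 0.253 (SE) at 2 months and -1.05 ± 0.199 (SE) at 28 months. Mir26b, a microRNA gene within an intron of Ctdsp1, was counted at 21 reads or fewer in each library.

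Rtkn2 encodes rhotekin 2, a relative of rhotekin that has been studied in lymphocytes, and it was the scarcest of the 9 genes, at a mean of 0.221 CPM per kb. It lies on chromosome 10 (67979570 to 68059740, plus strand, GRCm38; ENSMUSG00000037846). In 28-month Pparafl/fl mice it stood at 9.54, 3.62, 1.88, 1.49 and 0.510 CPM, against 0.184, 0.503, 0.463, 0.309 and 0.478 CPM in the knockouts of that age. The lowest Pparafl/fl value was almost level with the highest knockout value, and replicate 1 stood far above the other 4. At 2 months both genotypes were low, from 0.261 to 0.687 CPM in Pparafl/fl and from 0.435 to 1.11 CPM in the knockouts. The log2 fold change at 28 months was -3.11 ± 0.733 (SE), and -2.28 without Pparafl/fl replicate 1, while at 2 months it was 0.43 ± 0.380 (SE). Counts of Rtkn2 in the 28-month knockouts were 12 to 32 reads per library. Summed T and NK cell markers in 28-month Pparafl/fl replicates 1 to 5 were 437, 181, 131, 236 and 241 CPM. In 28-month knockout replicate 4, with Rtkn2 at 0.309 CPM, they were the highest of all 20 libraries, at 571.8 CPM. The part of these markers in the Rtkn2 values was not tested.

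Nkiras1 encodes κB-Ras1, a small GTPase-like protein that binds IκB and slows its breakdown. It lies on chromosome 14 (18271136 to 18284003, plus strand, GRCm38; ENSMUSG00000021772). At 28 months its level was 20.03, 11.7, 23.9, 12.7 and 18.2 CPM in the knockouts and 31.3, 20.4, 23.8, 22.9 and 26.7 CPM in Pparafl/fl, and the groups overlapped. At 2 months the knockouts stood at 23.9, 23.8, 36.2, 30.4 and 28.4 CPM and Pparafl/fl at 23.3, 15.3, 15.2, 14.6 and 17.5 CPM. All 5 young knockouts lay above all 5 young Pparafl/fl mice, the nearest values being only slightly apart. The log2 fold change was 0.76 ± 0.180 (SE) at 2 months and -0.53 ± 0.236 (SE) at 28 months. With the skeletal muscle marker mean as a covariate the 28-month value was -0.27. Nkiras1 overlaps exons of Rpl15 (105 bases) and Ube2e1 (718 bases) on the opposite strand, and whether the deposited counting used strand is not given in the sources used here, so reads of these genes may be mixed.

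Ro60, named Trove2 in GENCODE M21, encodes a ring-shaped protein that binds Y RNAs and misfolded non-coding RNAs and is a target of autoantibodies in lupus and Sjögren syndrome. It lies on chromosome 1 (143750790 to 143777068, minus strand, GRCm38; ENSMUSG00000018199). At 2 months it stood at 21.1, 27.2, 17.9, 26.3 and 20.9 CPM in Pparafl/fl and at 111, 22.6, 83.9, 103 and 54.0 CPM in the knockouts. Only knockout replicate 2 lay within the narrow Pparafl/fl range. At 28 months the Pparafl/fl mice held 66.0, 123, 103, 105 and 25.5 CPM and the knockouts 38.2, 27.5, 26.1, 79.8 and 32.9 CPM, and all 5 knockouts lay within the wide range of Pparafl/fl, most of them near its lower end. The log2 fold change was 1.76 ± 0.374 (SE) at 2 months and -1.05 ± 0.441 (SE) at 28 months, or -1.45 without knockout replicate 4.

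Fyco1 encodes an adaptor that binds LC3 on autophagosomes, Rab7 and kinesin, and so carries them along microtubules. The gene is on chromosome 9 (123789500 to 123851899, minus strand, GRCm38; ENSMUSG00000025241). At 28 months its level was 122, 119, 139, 97.2 and 128 CPM in the knockouts and 181, 177, 192, 230 and 158 CPM in Pparafl/fl, without overlap. In young mice the values were 240, 155, 158, 203 and 159 CPM in the knockouts and 140, 165, 160, 161 and 154 CPM in Pparafl/fl. The young groups overlapped, with 2 knockouts above all others. The log2 fold change was 0.26 ± 0.141 (SE) at 2 months and -0.63 ± 0.157 (SE) at 28 months, the smallest standard error of the 9 genes at that age. Fyco1 shares 402 exonic bases with AC165425.1 on the same strand, which was counted at 126 reads or fewer in each library.

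At 28 months, then, 6 of the 9 genes had ranges that did not overlap between the genotypes, and 0.601% of all 23624 genes tested had such ranges. At 2 months there were 2 such genes among the 9, against 2.39% of all genes. The rule for choosing the genes used these libraries, so the counts are given beside their backgrounds and nothing is read from them. With edgeR's quasi-likelihood test and Benjamini-Hochberg adjustment, 0 of 21468 genes (0%) were called between the genotypes at 28 months. In the same test 689 genes had an unadjusted p under 0.05, or 3.21%. DESeq2 called 20 of the same 21468 genes, among them Flrt3, Gprasp2, Ctdsp1, Rtkn2 and Fyco1. For the interaction of genotype and age edgeR called 0 of 23624 genes (0%), with 1432 at an unadjusted p under 0.05. DESeq2 called 269 of the same 23624 genes, among them 8 of the 9 genes, all but Gprasp2. These calls too are on the values the genes were selected on. Gm2541, a predicted gene, was the only gene of 20598 (0.00485%) that edgeR called between the genotypes at 2 months.

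The interaction, which is the 28-month minus the 2-month genotype difference in log2 fold change, was 2.98 for Flrt3, 2.05 for Gprasp2, 1.92 for Pced1b and 1.03 for Msn. It was -3.53 for Rtkn2, -2.77 for Ro60, -1.73 for Ctdsp1, -1.26 for Nkiras1 and -0.86 for Fyco1. In 8 of the 9 genes the genotype difference had opposite signs at the 2 ages, the exception being Gprasp2. Seen by age within a genotype, the log2 fold change of Flrt3 was -0.36 in Pparafl/fl and 2.62 in the knockouts, and that of Ctdsp1 was 0.47 and -1.27. It was 1.91 and -0.86 for Ro60 and 2.84 and -0.71 for Rtkn2. For Gprasp2 it was -1.53 and 0.51, for Pced1b -0.87 and 1.05 and for Msn -0.59 and 0.43. Fyco1 came to 0.28 and -0.60, and Nkiras1 to 0.55 and -0.73. These comparisons share libraries with each other and with the choice of the genes.

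Against age, ranges did not overlap for 2 of the 9 genes in Pparafl/fl, namely Gprasp2 and Msn, which were lower at 28 months (8.35% of all genes had such ranges). In the knockouts they did not overlap for 3, with Flrt3 higher and Ctdsp1 and Fyco1 lower at 28 months (7.75% of all genes). For Flrt3 in the knockouts the gap was wide, from at most 3.11 CPM at 2 months to at least 11.5 CPM at 28 months.

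**Figure D2:**
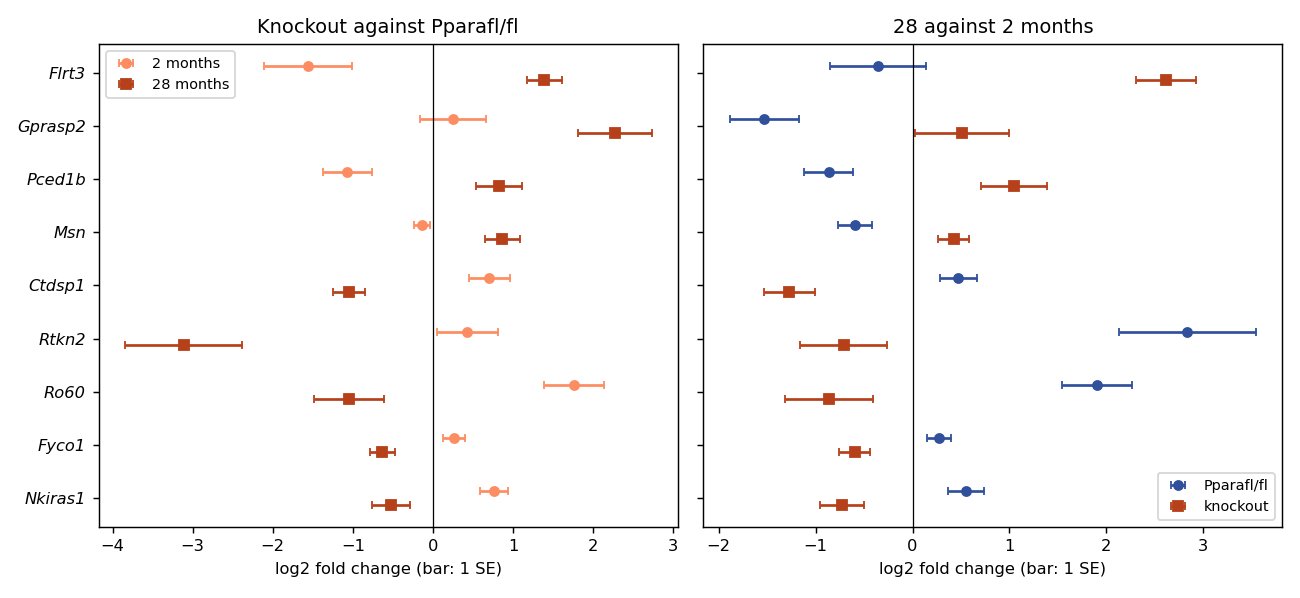
Log2 fold changes of the 9 genes from edgeR fits of 10 libraries each, with bars of 1 standard error. Left, knockout against Pparafl/fl at 2 and at 28 months; right, 28 against 2 months in each genotype. Flrt3 lay at -1.56 and 1.39 on the left and Ro60 at 1.76 and -1.05, while Gprasp2 had the same sign at both ages.

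The choice of genes did not use the age difference averaged over both genotypes. In groups of equal size and equal spread it is independent of the genotype difference and the interaction in its mean though not in its spread. Spreads were unequal here, as for Rtkn2 at 28 months, with a coefficient of variation of 106% in Pparafl/fl and 35.3% in the knockouts. The test of the averaged age difference is therefore not fully independent of the choice. Flrt3 alone of the 9 genes passed this test, 1 of 9 where 20.1% of all genes passed (4738 of 23624, with 2511 or 10.6% higher and 2227 or 9.43% lower). Its averaged log2 fold change was 1.12 ± 0.298 (SE) and an adjusted p of 0.0135 in edgeR's quasi-likelihood test with Benjamini-Hochberg adjustment. All 5 old knockouts stood above every young knockout, but the old Pparafl/fl mice lay inside the range of the young ones, and the difference within a genotype was 2.62 and -0.36. The call was lost when the mean of the adipocyte markers was a covariate (log2 fold change 1.10, adjusted p = 0.217 in edgeR) and with the airway marker mean (1.18, adjusted p = 0.244 in edgeR), at a nearly equal size of the difference. Rtkn2 came to 1.06 ± 0.408 (SE) and an adjusted p of 0.0746 in edgeR, or 0.63 without Pparafl/fl replicate 1 at 28 months. Ctdsp1 came to -0.40 ± 0.164 (SE) and an adjusted p of 0.0923 in edgeR, and passed without any 1 of knockout replicates 4 and 5 at 2 months and Pparafl/fl replicate 1 at 28 months. The other 6 lay between -0.52 for Gprasp2 and 0.51 for Ro60, with adjusted p values in edgeR of 0.238 to 0.818. Ppara was lower with age, by a log2 fold change of -0.79 ± 0.211 (SE) and an adjusted p of 0.0137 in edgeR, and this call was lost with each of the 4 marker covariates, at -0.33 with adipocyte, -0.49 with airway, -0.68 with macrophage and -0.70 with skeletal muscle markers.

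The p-values rest on the spread between animals, which was wide, with a biological coefficient of variation of 0.728 over 20 libraries. Counts were also simulated from these libraries, with 1 spread per gene for all groups. There edgeR recovered 34 of 99 genes changed 2-fold and 61 of 96 changed 4-fold for the averaged age difference. For the genotypes at 28 months it recovered 4 of 98 and 29 of 96.

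Promoters from RefSeq (GRCm38.p6, 250 bases before to 50 after the start) were matched for 7 of the 9 genes. Those of 3 genes with no overlap between the genotypes at 28 months are shown, 2 of higher and 1 of lower genes, so that their base composition can be compared. Capitals mark matches to any of these motifs on either strand: AGGTCA (the hexamer that nuclear receptors such as PPARα bind in repeats), GGGCGG (the GC box), CCAAT (the CCAAT box), TATAAA (the TATA box), TGACG (the core of the cyclic AMP element), CACGTG (the E-box) and the CArG box of serum response factor. No 2 matches overlapped in the windows shown. Flrt3 is at chr2:140671427-140671726 on the minus strand, Msn at chrX:96095795-96096094 and Ctdsp1 at chr1:74391359-74391658, both on the plus strand.
Flrt3: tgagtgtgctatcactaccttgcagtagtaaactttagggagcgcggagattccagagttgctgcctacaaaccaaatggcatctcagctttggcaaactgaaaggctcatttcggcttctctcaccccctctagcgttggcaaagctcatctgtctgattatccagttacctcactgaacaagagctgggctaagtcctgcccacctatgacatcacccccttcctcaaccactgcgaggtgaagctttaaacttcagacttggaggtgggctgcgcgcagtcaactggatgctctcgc
Msn: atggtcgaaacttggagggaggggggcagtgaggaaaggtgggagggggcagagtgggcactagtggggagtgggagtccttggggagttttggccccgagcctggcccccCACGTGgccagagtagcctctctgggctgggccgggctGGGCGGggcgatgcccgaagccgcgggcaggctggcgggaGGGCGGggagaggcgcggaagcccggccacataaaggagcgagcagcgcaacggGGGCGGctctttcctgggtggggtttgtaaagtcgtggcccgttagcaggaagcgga
Ctdsp1: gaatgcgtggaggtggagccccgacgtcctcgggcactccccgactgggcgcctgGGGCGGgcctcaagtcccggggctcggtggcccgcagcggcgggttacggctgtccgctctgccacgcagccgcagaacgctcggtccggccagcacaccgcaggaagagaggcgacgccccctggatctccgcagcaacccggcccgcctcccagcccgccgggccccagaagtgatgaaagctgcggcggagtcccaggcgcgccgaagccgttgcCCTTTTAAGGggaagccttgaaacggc
GC content was 51.3% in the Flrt3 window, 69.0% for Msn and 72.0% for Ctdsp1, where the median of all windows was 52.7%. The Flrt3 window held none of these motifs. The Msn window held 3 GC boxes, at -101, -61 and -7 from the start, and Ctdsp1 held 1, at -195, where 35.7% of all 32851 promoter windows held at least 1. The capitals of Ctdsp1 near the end, at 24 bases after the start, are a CArG box, which 1.63% of windows held. An E-box lay at -139 in Msn, and 7.15% of windows held at least 1. AGGTCA was in none of the 8 windows of the 7 genes, where 16.3% of all windows held it. Such matches describe letters and not binding.

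Of 11 receptors and partners related to Flrt3, 1 rose and 3 fell with age averaged over genotypes, where 10.6% of all genes rose and 9.43% fell. The median log2 fold change was 0.15 over the 11 and 0.10 over all genes, and 7 of the 11 did not pass the test. Adgrl3, a latrophilin that FLRT3 binds, rose by 0.83 ± 0.242 (SE) and an adjusted p of 0.0220 in edgeR, from 21.5 ± 8.59 to 41.5 ± 18.2 CPM (SD, n = 5) in Pparafl/fl and from 30.0 ± 10.7 to 49.1 ± 10.7 CPM (SD, n = 5) in the knockouts. The latrophilins Adgrl2 and Adgrl1 fell by 0.73 and 0.50 on the log2 scale (adjusted p of 0.00751 and 0.0144 in edgeR). Fgfr1, a fibroblast growth factor receptor, fell by 0.71 ± 0.112 (SE) and an adjusted p of 5.1e-04 in edgeR. Its level was 181 ± 22.0 and 175 ± 27.2 CPM (SD, n = 5) in young Pparafl/fl and knockouts and 113 ± 10.7 and 105 ± 26.0 CPM (SD, n = 5) in old ones.

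Genes of the autophagosome path to which Fyco1 belongs fell in 3 of 13 cases and rose in 0, beside 9.43% and 10.6% of all genes. Map1lc3a, an LC3 gene, fell by 1.72 ± 0.376 (SE), Gabarap, of the same protein family, by 0.53 ± 0.117 (SE), and the cargo receptor gene Sqstm1 by 0.65 ± 0.126 (SE) (adjusted p of 0.00426, 0.00477 and 0.00196 in edgeR). Sqstm1 stood at 325 ± 37.8 and 356 ± 72.5 CPM (SD, n = 5) in young Pparafl/fl and knockouts and at 234 ± 35.9 and 200 ± 51.5 CPM (SD, n = 5) in old ones. Fyco1 itself did not pass, at -0.16 ± 0.0978 (SE) and an adjusted p of 0.255 in edgeR.

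Of 13 ERM proteins and their partners 1 rose and 0 fell, which is no higher a share than the 20.1% of all genes called. This was Cd44, the hyaluronan receptor to which moesin binds, which rose by 0.83 ± 0.194 (SE) and an adjusted p of 0.00662 in edgeR. Its level went from 39.5 ± 8.58 to 74.5 ± 28.5 CPM (SD, n = 5) in Pparafl/fl and from 36.2 ± 8.09 to 60.3 ± 20.7 CPM (SD, n = 5) in the knockouts. The paralogs Ezr and Rdx came to 0.57 and 0.29 and did not pass. Rela, a subunit of NF-κB, fell by 0.42 ± 0.0779 (SE) and an adjusted p of 0.00156 in edgeR, 1 of 11 genes of the κB-Ras list. Pcbp2, of the Ro60 list, fell by 0.22 ± 0.0663 (SE) and an adjusted p of 0.0286 in edgeR, 1 of 7. The Pcbp2 call was lost without any 1 of Pparafl/fl replicate 1 at 2 months, Pparafl/fl replicates 2 and 4 at 28 months, knockout replicate 5 at 2 months and knockout replicate 3 at 28 months, with an adjusted p in edgeR of at most 0.0600. It was also lost in the fit without the filter on low counts (adjusted p = 0.0609 in edgeR). None of 7 genes of the CTDSP1 and REST list, 9 of the GPRASP2 family list or the 1 PC-esterase relative passed, and their most abundant members came to -0.64 for Ctdsp2, -0.09 for Gprasp1 and -0.33 for Pced1a. Ctdsp2 passed only without Pparafl/fl replicate 3 at 28 months, at -0.90 with an adjusted p of 0.0452 in edgeR.

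**Figure D3:**
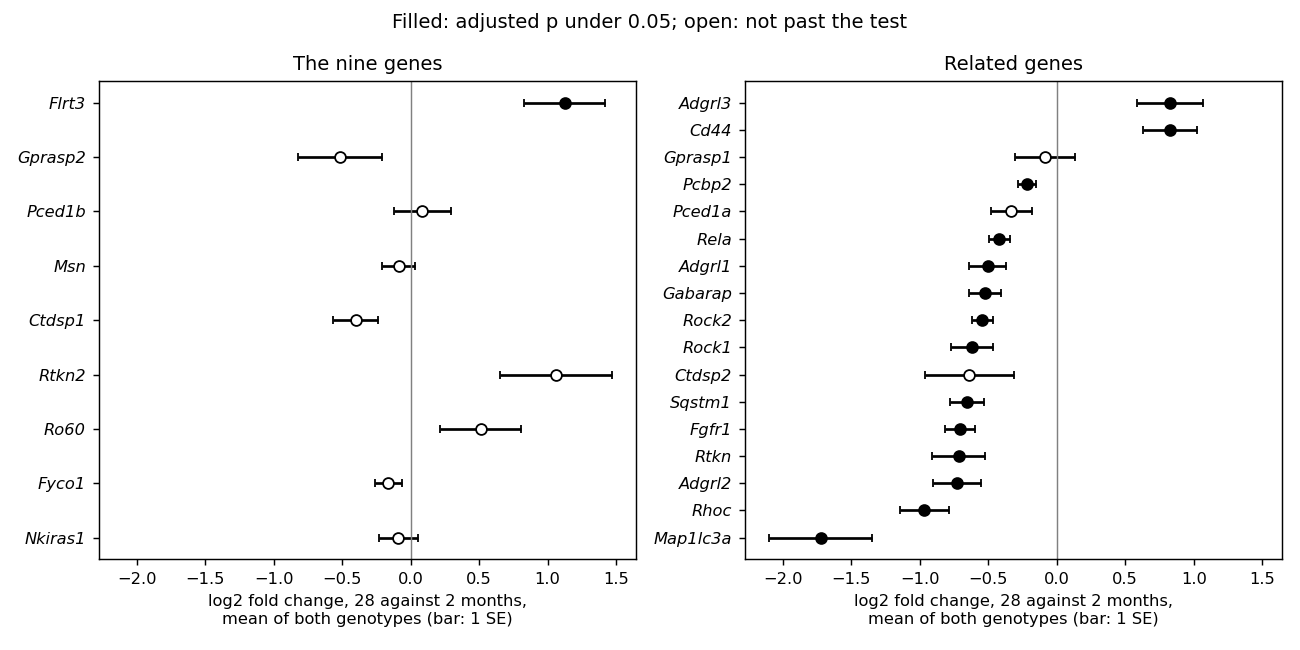
Log2 fold change of 28 against 2 months, averaged over both genotypes in 1 edgeR fit of 20 libraries, for the 9 genes (left) and 17 related genes (right), with bars of 1 standard error. Filled points passed an adjusted p of 0.05; Flrt3 at 1.12 is the only filled point on the left, and Map1lc3a at -1.72 is the lowest on the right.

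In all, 2 of the 80 related genes rose with age and 12 fell, with a median of -0.04, where 10.6% of all genes rose and 9.43% fell. With both directions together the related genes were called about as often as other genes, but with fewer rises and more falls. Smooth muscle markers fell in 9 of 10 cases and rose in 1. Fibroblast markers fell in 9 of 10 and adipocyte markers in 6 of 10. Airway markers rose in 9 of 9 tested, though unevenly, with a 28-month sum as low as 20.51 CPM in 1 knockout. Macrophage markers and B and plasma cell markers each rose in 4 of 10. When the mean of the adipocyte or the airway markers was a covariate, 12 of the 14 calls were lost, all but Adgrl2 and Rock2 under both. Rock2 is the gene of a kinase that acts in smooth muscle contraction. With the skeletal muscle mean 10 of the 14 were lost, and Fgfr1, Map1lc3a, Rela and Rock2 were kept. Rock2 alone passed in each of these fits. Calls over all genes fell from 4738 to 508 with the adipocyte, 374 with the airway and 1040 with the skeletal muscle mean. The losses were thus general and not particular to the related genes. With the macrophage mean 11 of the 14 calls were kept, and all genes gave 3431 calls. The log2 fold changes of several lost genes stayed about as large under the adipocyte mean, at -0.65 for Sqstm1, -0.58 for Gabarap and -0.41 for Rela, while those of Cd44 and Map1lc3a shrank to 0.42 and -0.82. None of the 80 related genes was called between the genotypes at 28 months or for the interaction, with 2 and 4 at an unadjusted p under 0.05, where 3.21% and 6.06% of all genes had one.

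**Figure D4:**
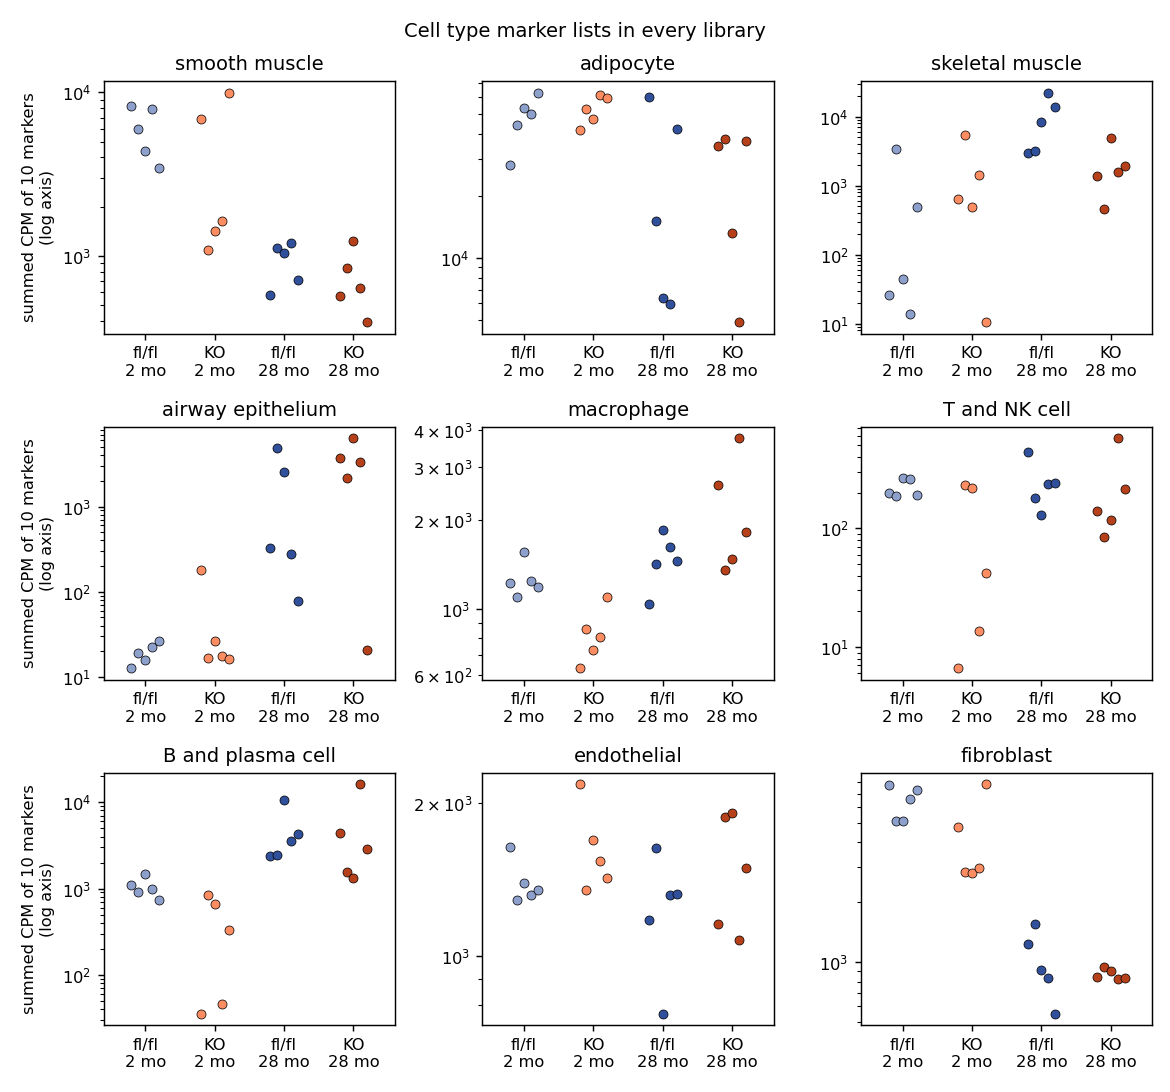
Summed CPM of 10 markers for each of 9 cell types in every library on log axes, by group (fl/fl, Pparafl/fl; KO, smooth muscle knockout; mo, months). Smooth muscle markers reached 1236 CPM at most at 28 months, and macrophage markers ranged from 633.9 to 1103 CPM in the young knockouts and from 1355 to 3751 CPM in the old ones.

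The 9 genes also varied together over the 20 libraries, which is described without a test since the choice of genes fixes much of it. Among the 4 genes higher in the old knockouts Spearman's rho ran from 0.189 for Flrt3 and Gprasp2 to 0.564 for Gprasp2 and Msn. Among the 5 lower genes it ran from 0.167 for Rtkn2 and Ro60 to 0.633 for Ctdsp1 and Fyco1. Every pair across the sets was negative, from -0.617 for Msn and Fyco1 to -0.268 for Flrt3 and Rtkn2.

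Of 15152 other genes with a mean of at least 50 counts, those with the pattern most like Flrt3 over 20 libraries were Pag1 (rho 0.857) and Ucp2 (0.854). For Pced1b they were Lyl1 (0.809) and H2-DMa (0.794), and for Msn Tmem198 (0.80) and Selenom (0.755). Gprasp2 was most like Kbtbd6 (0.771) and Pcdhb17 (0.743). Ctdsp1 and Nkiras1 shared Acad12, at 0.765 and 0.802, beside Smim6 (0.79) for the first and Tada2b (0.746) for the second. Rtkn2 was most like Angel1 (0.808) and Mttp (0.678), Ro60 most like Trim67 (0.75) and Exoc6 (0.692), and Fyco1 most like Ikbip (0.79) and Fra10ac1 (0.784). The summed cell type markers also differed between these libraries, and their part in these rho values was not tested.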

How the data were processed

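The values are raw read counts per gene as the authors deposited them, in 4 tables that each hold a pair of groups; the 20 library columns held the same counts in both tables that list them. HISAT, featureCounts 1.5.0-p3, DESeq 1.8.3 and GRCm38 are named per the submitters' processing notes, and the library kit is a stranded one per the labels' protocols, while the strand setting of the counting is not given in the sources used here. The counts were joined to 55421 genes, of which 55154 (99.5%) matched GENCODE M21, the source of coordinates.

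Fits used R 4.3.3, edgeR 4.0.16 and limma 3.58.1 with TMM scaling, the filterByExpr filter, two-sided quasi-likelihood tests and Benjamini-Hochberg adjustment over all genes tested, with calls at an adjusted p under 0.05. Genotype and single-genotype age differences used the 10 libraries concerned, and the interaction and the averaged age difference all 20. Each standard error (SE) was taken as the size of the log2 fold change over the square root of its F statistic. CPM use the TMM scale of all 20 libraries, with total counts of 50046288 to 79385413. The parts of depth and of the spread between animals in the precision were not compared.

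The 9 genes, the lists of related genes and the marker lists were chosen with earlier results of these data known. Genes named beside the 9 are Ppara, the 2 genes most like each of the 9 by Spearman's rho, overlapping genes, and from each list up to 4 genes past the age test with the smallest p or else the most abundant. Results for 1 item withheld for evaluation are not reported here. Gm2541, Ezr and Rdx were named after their values were seen. Alternatives were DESeq2 1.42.0 size factors and its Wald test, a fit without the filter, one with a minimum mean of 50 counts, marker covariates (macrophage and skeletal muscle were added after the data were seen), 1 fit of 20 libraries and leaving out each library. The scripts were tested on simulated data. The averaged age difference gave 10 false calls beside 34 right ones at 2-fold and 61 at 4-fold. The genotypes at 28 months gave 2 false calls beside 4 and 29 right ones. Each simulated gene had 1 spread for all groups, so these rates may not hold where spreads were unequal.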

Additional observations from a re-analysis of the deposited data

Results flagged for a closer look

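In each group of 5 the highest and the lowest value of each gene were compared with the nearest other value, and a gap of more than 0.71 of the group's range was marked. About 1 in 20 groups is marked by chance, or 1.8 of the 36 gene and group combinations, and 2 were marked. Gprasp2 stood at 14.3 CPM in 2-month knockout replicate 2, where the other 4 lay between 3.92 and 5.15 CPM, and the gap was 0.881 of the range. That library also held the least smooth muscle marker signal of its group, 1094 CPM summed, and the most skeletal muscle marker signal, 5364 CPM summed. Without it the averaged age difference of Gprasp2 was -0.24 in place of -0.52. Ro60 stood at 79.8 CPM in 28-month knockout replicate 4, where the other 4 lay between 26.1 and 38.2 CPM, and the gap was 0.775 of the range. In that library the summed macrophage markers (3751 CPM), T and NK cell markers (571.8 CPM) and B and plasma cell markers (16160 CPM) were each the highest of all 20. The part of these markers in either value was not tested.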

How the results depend on the processing

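The averaged age difference gave 4738 calls in edgeR, between 3878 (without knockout replicate 5 at 2 months) and 5530 (without Pparafl/fl replicate 1 at 28 months) with 1 library left out, 508 with the adipocyte, 374 with the airway and 1040 with the skeletal muscle marker mean as a covariate. Flrt3 kept its call with each library left out, from 0.98 to 1.28, and lost it with the first 2 of those covariates. Genotype calls at 28 months numbered 0, between 0 and 2 with 1 library left out, and 20 by DESeq2. Interaction calls numbered 0, between 0 and 1 (Flrt3, without Pparafl/fl replicate 2 at 2 months) with 1 library left out, and 269 by DESeq2. For age in the knockout edgeR gave 934 calls, and 1477 in 1 fit of 20 libraries. The averaged age difference changed sign for Msn (0.0057 adipocyte, 0.13 airway), Ro60 (-0.18 and -0.16) and Nkiras1 (0.030 and 0.086, and 0.00032 with macrophage markers). Gprasp1 came to 0.18 with skeletal muscle markers. With 1 library left out Pced1b ran from -0.016 to 0.16, Gprasp1 from -0.19 to 0.019, and Ppara between the genotypes at 28 months from -0.091 to 0.23. None of these passed the test, and the cause was not tested. Rtkn2 passed by DESeq2 (adjusted p = 0.0381) and in edgeR without Pparafl/fl replicate 5 at 28 months (adjusted p = 0.0273). No genotype difference at 28 months of the 9 genes changed sign in any setting. The genes were selected on these values, so nothing is read from that. Selection on the genotype test favours genes of low spread, which the age test of the same libraries shares. No paired analysis was possible because the animals carry identifiers and no shared replicate numbers.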
